A study of Homo sapiens with 16 samples.

Results

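Replication-dependent histone genes were compared by subtype in LNCaP cells, an established human prostate cancer cell line that depends on the androgen receptor. The genes were taken by name, as H1-1 to H1-6 and all symbols made of H2AC, H2BC, H3C or H4C and a number, which left pseudogenes out. By this rule 67 of the 60605 genes in the count tables were histone genes, with 6 for H1, 15 for H2A, 18 for H2B, 13 for H3 and 15 for H4. A further 2 symbols that the rule takes, H2AC18 and H2AC19, were not analysed here. Of the 67 genes, 55 lie in the large cluster on chromosome 6, 11 lie on chromosome 1 and 1 (H4C16) lies alone on chromosome 12 (positions from RefSeq on GRCh38.p14).

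The assay was PRO-seq, which labels nascent RNA in a nuclear run-on and so counts the RNA polymerases engaged on a gene. The values therefore describe ongoing transcription and not amounts of histone mRNA. In batch 2 the cells were kept for 90 min in DMSO vehicle or in 10 µM enzalutamide, an androgen receptor antagonist, and the irradiated dishes were given 6 Gy of ionizing radiation (IR) after the first 30 min, with a further 60 min before collection. The 4 groups of batch 2 (vehicle, IR with vehicle, enzalutamide, enzalutamide with IR) had replicates 3 and 4. Batch 1 held mock-treated cells and cells given 6 Gy, with replicates 1 and 2, and each replicate had a t1 and a t2 library, a label that the sources used here do not explain. The labels give no vehicle and no times of its own for batch 1. The counts of t1 and t2 were summed and count as 1 replicate, so each of the 6 groups had n = 2. All groups are the same cell line, and the labels name no genetic change. Nothing in the labels says that replicates were separate cultures, so p-values measure the spread between these samples, which may be technical.

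The core histones H2A, H2B, H3 and H4 form the protein spool around which DNA is wound, and H1 binds the DNA between spools. The many genes of a core histone encode identical or nearly identical proteins, while the H1 genes encode distinct variants. Dividing cells make most of their histones while DNA is copied, from many short genes without introns whose mRNAs end in a stem-loop in place of a poly(A) tail. The genes are transcribed together in nuclear bodies built around NPAT, a coactivator switched on by cyclin E and CDK2 as cells enter S phase. The inhibitor of that kinase, the protein encoded by CDKN1A, is induced by p53 after radiation.

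Stretches of 6 promoter regions are shown first because they hold letters that set the subtypes apart and because the genes carry results below. They are the 150 bases before the start of H1-4 (chr6:26156179-26156328, plus strand), H1-6 (chr6:26108136-26108285, minus strand), H2AC4 (chr6:26033619-26033768, minus strand), H3C10 (chr6:27809901-27810050, plus strand) and H4C16 (chr12:14771132-14771281, minus strand), and the whole 244 bases between the starts of the head-to-head genes H2AC14 and H2BC14 (chr6:27814778-27815021, plus strand, with H2AC14 leaving to the left). All are from RefSeq on GRCh38.p14, 5′ to 3′. Capitals mark the TATA box motif TATAAA, the motif CCAAT, the octamer motif ATTTGCAT and the H1 box motif AAACACA, read on both strands.
H1-4: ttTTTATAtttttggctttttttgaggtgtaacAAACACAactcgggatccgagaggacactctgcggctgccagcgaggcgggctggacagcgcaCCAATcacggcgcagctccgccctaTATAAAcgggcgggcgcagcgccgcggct
H1-6: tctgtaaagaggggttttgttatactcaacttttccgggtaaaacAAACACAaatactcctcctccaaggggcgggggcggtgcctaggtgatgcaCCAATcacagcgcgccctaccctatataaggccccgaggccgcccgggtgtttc
H2AC4: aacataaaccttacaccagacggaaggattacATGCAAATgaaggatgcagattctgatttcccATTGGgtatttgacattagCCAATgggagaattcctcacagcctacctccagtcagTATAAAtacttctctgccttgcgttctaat
H2AC14 to H2BC14: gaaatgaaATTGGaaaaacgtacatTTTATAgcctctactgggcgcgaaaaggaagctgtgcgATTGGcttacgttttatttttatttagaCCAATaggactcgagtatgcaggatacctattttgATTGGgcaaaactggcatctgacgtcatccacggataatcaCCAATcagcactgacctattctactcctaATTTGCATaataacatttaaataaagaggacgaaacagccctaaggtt
H3C10: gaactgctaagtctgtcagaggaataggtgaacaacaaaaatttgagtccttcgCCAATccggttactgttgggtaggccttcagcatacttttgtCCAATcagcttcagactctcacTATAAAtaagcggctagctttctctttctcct
H4C16: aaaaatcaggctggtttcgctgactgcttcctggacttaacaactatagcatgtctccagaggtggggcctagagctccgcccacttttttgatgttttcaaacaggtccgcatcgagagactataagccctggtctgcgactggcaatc

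The subtypes carried different letters in the 250 bases before the start, in the 62 histone genes with a RefSeq promoter. AAACACA stood before all 6 H1 genes and before none of the other genes, against 4.95% of 27305 promoters. ATTTGCAT stood before 11 of 14 H2A genes, 14 of 18 H2B genes, 1 of 11 H3 genes (H3C4, which overlaps H2AC7) and no H1 or H4 gene, against 1.66% of all promoters. CCAAT stood before every H1, H2A, H2B and H3 gene with a promoter and before 3 of 13 H4 genes, against 33.0%. TATAAA stood before 40 of the 62 (64.5%), against 11.1%. The stretch of H4C16 shown is shorter than the 250 bases searched and has none of the 4. H4C16 is still among the 40 genes with TATAAA, since a match lies in the part of the 250 bases not shown. Each motif was searched by itself, with overlaps between motifs left in, and a match is a description of the sequence, not a measured site. Head-to-head H2A and H2B genes start 193 to 247 bases apart, so both are searched over the same stretch and 1 motif can count for both. The ATTTGCAT between H2AC14 and H2BC14 does so, and the H2A and H2B counts are thus not separate.

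Library totals ranged from 3438642 to 9363458 counts for batch 1 and from 10494563 to 19905824 for batch 2. The 7 markers of luminal prostate cells were all transcribed, with a summed level of 2379 to 3392 CPM over the 12 samples. After IR their median log2 fold change was -0.25 in vehicle, -0.16 in enzalutamide, -0.16 in batch 1 and -0.20 in both batches, where 2 of the 7 (KLK3 and TMPRSS2) fell, and their part in the histone results was not tested. Markers of basal cells (KRT5, TP63, KRT14) summed to at most 9.0 CPM, of stroma (COL1A1, COL1A2, VIM) to at most 17.5 CPM and of endothelium (PECAM1, VWF) to at most 35.2 CPM. CPM, the counts of a gene relative to its library total, are scaled by TMM factors within a batch. Histone genes took 0.400% to 0.676% of the counts of a batch 2 library and 0.907% to 2.54% of a batch 1 library. Mitochondrial genes were also higher in batch 1 (2.86% to 5.38% of counts) than in batch 2 (0.570% to 0.934%), and their part in the histone levels was not tested. In summed H2B counts 1 library stood apart, the t1 library of mock replicate 1. Its H2B genes summed to 9351 CPM, against 4891, 5017 and 5270 CPM in the other mock libraries. The H2B share of histone counts instead split all 8 batch 1 libraries. It was 35.5% and 37.2% in mock t1 and 35.7% and 33.2% in irradiated t2 libraries (replicates 1 and 2). In mock t2 it was 28.7% and 26.6%, and in irradiated t1 28.2% and 29.4%. Mitochondrial percent was likewise higher in mock t1 and irradiated t2 libraries (4.25% to 5.38%) than in the others (2.86% to 3.94%). For batch 1 the sums, the counts of calls and some fold changes are also given without that t1 library of mock replicate 1. Leaving it out does not remove the split by H2B share.

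Most of the cluster was transcribed, and 16 genes were close to silent in every group. Averaged over the 6 groups, 51 genes had a mean of 18.2 CPM or more and the other 16 a mean of 3.79 CPM or less, with none between. Per kilobase, which can be given for 43 of the 51 and for all 16, the split was at 38.8 CPM or more against 7.87 CPM or less. The 16 were 3 of 6 H1 genes (H1-1, H1-3 and H1-6), 1 of 15 H2A genes (H2AC1), 4 of 18 H2B genes (H2BC1, H2BC3, H2BC9, H2BC10), 3 of 13 H3 genes (H3C3, H3C7, H3C8) and 5 of 15 H4 genes (H4C4, H4C6, H4C7, H4C9, H4C13). H1-6, H2AC1 and H2BC1 encode histones known from the testis. In the order along chromosome 6, 7 of the 16 followed one another without an active gene between them, from H1-3 to H2BC10 over 39.2 kb (chr6:26234212-26273412), and these were H1-3, H4C6, H4C7, H3C7, H2BC9, H3C8 and H2BC10. Both flanks of that run were active by CPM, with a mean of 35.7 CPM for H3C6 and 163 CPM for H4C8. H3C6 spans 3296 bases in RefSeq and has no level per kilobase here, so its place rests on CPM alone. H2AC1, H2BC1 and H1-1 at one end of the cluster, and H2BC3 with H3C3, made 2 shorter runs.

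**Figure D1:**
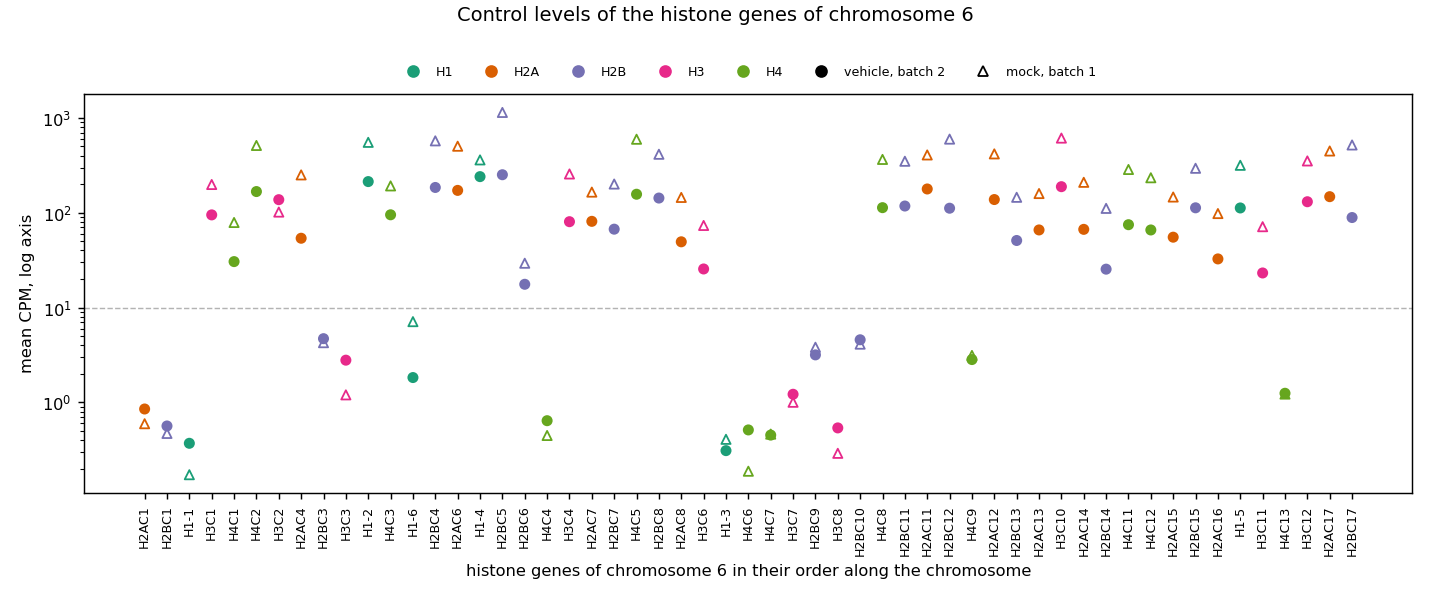
Mean CPM (log axis) of the 55 histone genes of chromosome 6 in their order along the chromosome, in vehicle cells of batch 2 (filled circles) and mock cells of batch 1 (triangles), coloured by subtype; the dashed line is 10 CPM. The 7 genes from H1-3 to H2BC10 lie under the line in both batches, between genes above it.

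Per kilobase of gene, the medians of the active members were highest for H1 and H4, with ranges that did not separate the subtypes. This comparison covers the 59 genes that span under 1000 bases in RefSeq, since the length counted for the other 8 (H2BC4, H2BC5, H2BC12, H2BC18, H2BC21, H3C4, H3C6, H4C15) is unknown. The median level of the active genes was 356 CPM per kb for H1 (3 genes), 326 for H4 (9 genes), 284 for H3 (8 genes), 199 for H2B (9 genes) and 188 for H2A (14 genes). The ranges overlapped: 187 to 418 CPM per kb for H1, 103 to 1098 for H4, 65.1 to 653 for H3, 38.8 to 429 for H2B and 62.3 to 714 for H2A. The highest single genes were H4C14 (1098 CPM per kb), H2AC20 (714) and H4C2 (666). H4C14 and its copy H4C15 had counts in a ratio of 0.967 to 1.06 in the 16 libraries. For H3C14 and H3C15 it was 0.881 to 1.01, so this pair was less even. Neither pair can be told apart with certainty, since how reads that match both copies were counted is not given in the sources used here.

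Summed levels of all 5 subtypes were lower after IR in vehicle-treated cells. The summed level of all 67 genes was 6033 ± 272 CPM in vehicle and 4484 ± 675 CPM after IR, or 74.3% of vehicle. H2A went from 1311 ± 32.5 to 952 ± 90.1 CPM (72.6%), H2B from 1549 ± 62.4 to 1155 ± 215 CPM (74.6%), H3 from 1251 ± 113 to 925 ± 128 CPM (73.9%) and H4 from 1354 ± 51.7 to 963 ± 177 CPM (71.1%). H1 differed least, from 569 ± 12.8 to 489 ± 64.5 CPM (86.0%). In each subtype both irradiated samples were below both vehicle samples, and replicate 4 was the lower irradiated sample. These are bulk libraries of unsynchronised cells, so fewer cells in S phase and less histone transcription per cell cannot be told apart.

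**Figure D2:**
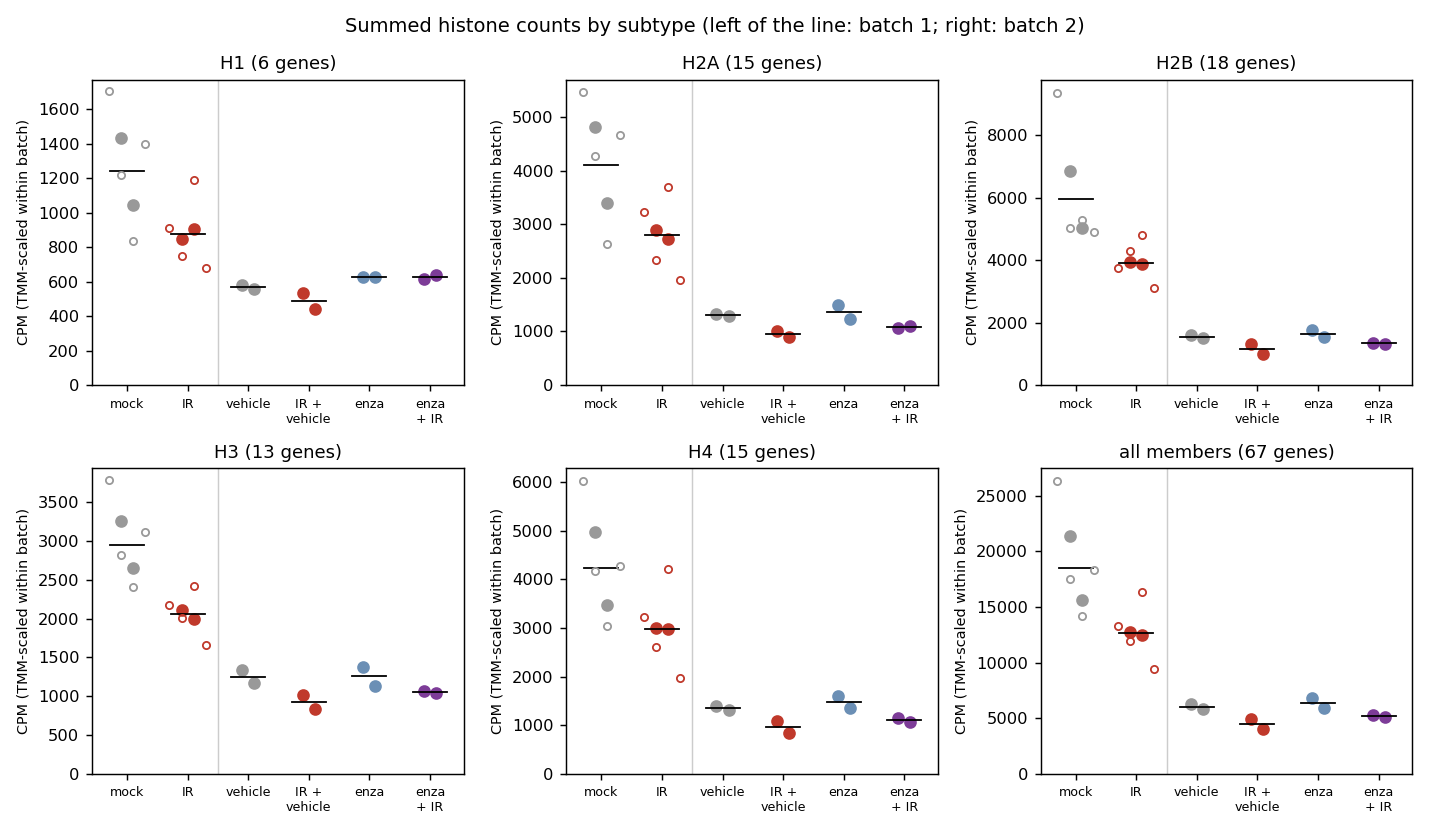
Summed CPM of the genes of each subtype in each sample (filled points), with the mean as a line and, in batch 1, the single t1 and t2 libraries as open points; n = 2 replicates per group and CPM are scaled within a batch. In batch 2 the samples of IR with vehicle lie below those of vehicle in every panel, and H1 alone is level between enzalutamide and enzalutamide with IR.

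Gene by gene, 60 histone genes had enough counts to be tested, 9 of them near-silent, and all 60 had a log2 fold change under 0, with a median of -0.52 against -0.0057 over all 28651 genes tested. The members not tested were all near-silent. By edgeR's quasi-likelihood test with Benjamini-Hochberg adjustment over all genes, 15 of the 60 fell and none rose, while 0.353% of all genes tested fell and 0.743% rose. With the replicate number as a block 45 of the 60 fell, against 2.03% of all genes. The levels of the irradiated samples were below those of both vehicle samples for 55 of the 60, against 22.8% of all genes tested, and the 5 others were H1-4, H3C4, H4C5, H3C7 and H2BC12. By subtype the falls were 1 of 4 tested for H1, 6 of 15 for H2A, 5 of 17 for H2B, 1 of 12 for H3 and 2 of 12 for H4, with medians of -0.43, -0.60, -0.57, -0.48 and -0.52. With the block they were 2, 12, 12, 9 and 10. The count of 15 rests on few samples and moved when single samples were left out (see the last section). The median of the members tested was -0.63 and -0.41 without IR with vehicle replicate 3 and 4. It was -0.44 and -0.55 without vehicle replicate 3 and 4, and -0.52 and -0.55 without enzalutamide replicate 3 and 4. The enzalutamide samples enter the filter, the scaling and the shared spread of this fit.

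Among H2A genes, H2AC4 fell most of those called. It had 54.4 and 53.2 CPM in vehicle and 34.1 and 29.6 CPM after IR, a log2 fold change of -0.76 (SE 0.107, edgeR adjusted p 0.00203), and the 2 groups did not overlap. H2AC14, transcribed away from H2BC14, went from 65.8 and 67.8 to 40.8 and 39.9 CPM (-0.73, SE 0.0993, edgeR adjusted p 0.00146). H2AC25 and H2AC21 on chromosome 1 and H2AC13 and H2AC16 on chromosome 6 also fell, by 0.60 to 0.72 on the log2 scale, with edgeR adjusted p-values of 0.0124 to 0.0167. H2AC20, the H2A gene with the highest level, had 170.3 and 177 CPM in vehicle and 143 and 124 CPM after IR (-0.38, adjusted p 0.14, and 0.00598 with the block). H2AC6 had 169 and 176 and 146 and 123 CPM (-0.36, adjusted p 0.143, and 0.00751 with the block).

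Among H2B genes the falls were those of H2BC26 on chromosome 1 (-0.73, SE 0.135), H2BC14 (-0.71, SE 0.126), H2BC18 (-0.60, SE 0.115), H2BC7 (-0.57, SE 0.111) and H2BC13 (-0.56, SE 0.112), with edgeR adjusted p-values of 0.0128 to 0.0295. H2BC14 had 25.2 and 25.6 CPM in vehicle and 16.3 and 14.8 CPM after IR, close to the change of its partner H2AC14. H2BC5 and H2BC21, the H2B genes with the most counts, had 259.8 and 244 and 257 and 238 CPM in vehicle and 243 and 168 and 213 and 171 CPM after IR. Their log2 fold changes of -0.29 and -0.37 did not pass (adjusted p 0.456 and 0.314). With the block H2BC21 passed and H2BC5 did not (0.00957 and 0.0651).

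Linker histone genes did not move alike. H1-5 fell from 113 and 112 to 75.9 and 73.7 CPM (-0.59, SE 0.103, edgeR adjusted p 0.0114), with no overlap between the groups. H1-4 had 244 and 237 CPM in vehicle and 257 and 219.7 CPM after IR, 1 irradiated sample above and 1 below (log2 fold change -0.01, 95% interval -0.21 to 0.19). H1-2, the H1 gene with the most counts, had 218 and 208 and 201 and 149 CPM (-0.28, SE 0.117, adjusted p 0.394). Of all histone counts, H1 made up 9.28% to 9.58% in vehicle and 10.8% to 11.1% after IR. The near-silent H1-6 had 1.75 and 1.9 CPM and then 0.750 and 0.465 CPM (-1.56, SE 0.378, adjusted p 0.0856, and 0.0198 with the block).

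H3 and H4 each had few calls at similar medians. The 1 H3 gene called, H3C3, is near-silent, with 3.25 and 2.32 CPM in vehicle and 0.682 and 0.931 CPM after IR (-1.78, SE 0.331, edgeR adjusted p 0.0169). H3C10 went from 206 and 170.3 to 141 and 113 CPM, and the copies H3C14 and H3C15 changed by -0.39 and -0.28 (adjusted p 0.108 and 0.27, and 0.00202 and 0.0276 with the block). H4C16 on chromosome 12 fell from 75.1 and 72.2 to 47.2 and 39.9 CPM (-0.75, SE 0.101, edgeR adjusted p 0.00133). H4C3 fell from 89.3 and 101 to 60.6 and 62.8 CPM (-0.63, SE 0.0909, adjusted p 0.00243). The change of H4C16, outside the clusters, lay within the -0.56 to -0.76 of the chromosome 6 genes called, H3C3 aside. Those genes were picked by the same test, which favours large falls. All 60 members tested ran from -1.78 to -0.014, with a median of -0.52. H4C14 and H4C15, the H4 genes with the most counts, changed by -0.47 and -0.48 (adjusted p 0.16 and 0.145, and 0.000355 and 0.000305 with the block).

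**Figure D3:**
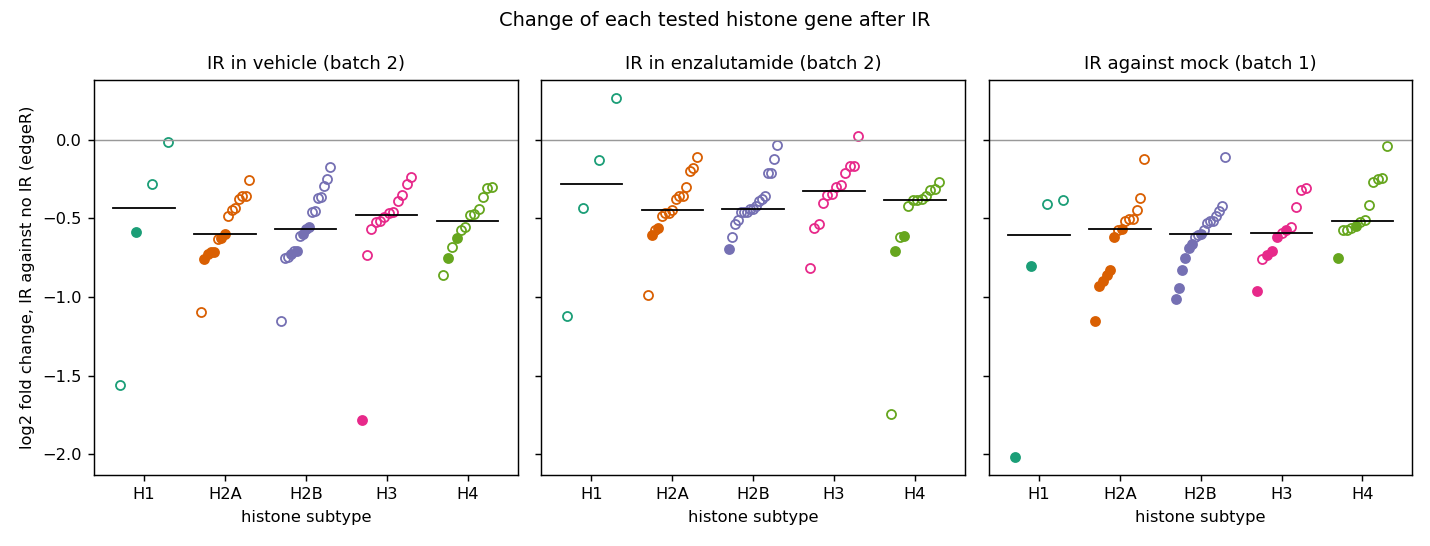
Log2 fold change (edgeR) of each tested histone gene after IR, by subtype, in vehicle cells, in enzalutamide cells and in batch 1; filled points passed an adjusted p of 0.05 and lines are medians. Medians of all subtypes lie under 0 in all 3 panels, and the points above 0 are H1-4 and H3C4 with enzalutamide.

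In enzalutamide-treated cells IR again went with lower histone levels, to an extent that differed between replicates. All 67 genes summed to 6365 ± 677 CPM with enzalutamide and 5195 ± 79.2 CPM with enzalutamide and IR, or 81.6%. By replicate number the sum after IR was 76.7% (replicate 3) and 87.3% (replicate 4) of that without IR, against 79.7% and 68.6% in vehicle, so the order of the arms turned between replicates. The subtypes stood at 78.7% for H2A, 81.4% for H2B, 84.0% for H3 and 74.9% for H4. H1 stood at 99.7%, with 628 ± 0.253 CPM before and 626 ± 18.3 CPM after. For H2A, H2B, H3 and H4 the irradiated samples were below both others, and the drug-only samples were further apart from each other than the irradiated ones.

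Of 60 genes tested 58 had a log2 fold change under 0, with a median of -0.39 against -0.014 over all genes tested. The edgeR test called 5 as fallen and none as risen, against 0.293% of all genes tested that fell and 0.625% that rose. With the replicate block 30 fell, against 1.45% of all genes. The irradiated samples were below both others for 49 of the 60, against 19.5% of all genes tested. The 5 genes were H2AC4 (-0.60), H2AC14 (-0.56), H2BC26 (-0.70), H4C3 (-0.71) and H4C16 (-0.61), with edgeR adjusted p-values of 0.000993 to 0.0233, and all 5 are among the 15 called in vehicle. H4C3 had 112 and 121 CPM with enzalutamide and 71.4 and 71.3 CPM with IR added, the lowest adjusted p of the 5 (SE 0.0907). The count was 18 without enzalutamide replicate 4, 3 without enzalutamide replicate 3, and 1 and 3 without enzalutamide with IR replicate 3 and 4.

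H1-4 was the 1 gene whose irradiated samples both lay above both others: 252 and 260.3 CPM with enzalutamide and 305 and 311 CPM with IR added (0.27, SE 0.093, edgeR adjusted p 0.361, and 0.0563 with the block). H3C4 had a log2 fold change of 0.03 (adjusted p 0.971) and overlaps H2AC7, so its reads are not its own with certainty. H4C13, near-silent, had 1.02 and 2.32 and 0.405 and 0.500 CPM (-1.74, SE 0.527, adjusted p 0.259).

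Whether the response to IR differed with the drug was tested as an interaction in batch 2. No histone gene passed (0 of 60 by edgeR and 0 by DESeq2), and 0% of all 28651 genes tested did. Before adjustment 0 of 60 were below 0.05 by edgeR, against 343 of all genes. The block likewise called 0 of the 60 (0.00349% of all genes), with 7 below 0.05 before adjustment, against 630 of all genes. The median difference in log2 fold change was 0.15 against -0.009 over all genes tested, with 8 of 60 below 0. By subtype the medians were 0.22 for H1, 0.15 for H2A, 0.15 for H2B, 0.17 for H3 and 0.06 for H4. The intervals were wide: 0.28 for H1-4 (95% interval -0.0036 to 0.57, unadjusted p 0.0526, edgeR adjusted p 1) and 0.15 for H2AC4 (-0.17 to 0.48). Replicates did not give one size of difference: the median change after IR was -0.45 and -0.59 in vehicle replicates 3 and 4 and -0.50 and -0.25 in enzalutamide replicates 3 and 4, so the medians of replicate 3 lay close with and without the drug.

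In batch 1 the summed histone levels were higher than in batch 2, and IR again went with lower sums. All 67 genes summed to 18456 ± 4071 CPM in mock cells and 12620.3 ± 238 CPM after IR, or 68.4%. The subtypes stood at 70.8% (H1), 68.5% (H2A), 65.7% (H2B), 69.6% (H3) and 70.5% (H4), so here H1 did not stand apart. Mock replicate 1 was above mock replicate 2 in each subtype, and both irradiated samples were below both mock samples. The single libraries overlapped: the 4 mock libraries summed to 14174 to 26336 CPM and the 4 irradiated ones to 9378 to 16327 CPM. With mock replicate 1 taken from its t2 library alone, all 67 genes stood at 75.7% after IR, with 76.8% for H1, 72.7% for H2A, 77.2% for H2B, 74.4% for H3 and 77.3% for H4, and both irradiated samples were again below both mock samples in each subtype.

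All 58 histone genes tested in batch 1 had a log2 fold change under 0, with a median of -0.57 against -0.0021 over all genes tested. The edgeR test called 23 as fallen and none as risen, against 0.819% of all 25889 genes tested that fell and 2% that rose. With the block 50 fell, against 4.24% of all genes. Both irradiated samples were below both mock samples for 49 of the 58, against 19.7% of all genes tested. The genes called were H1-5 and H1-6 (of 4 H1 genes tested), 7 of 14 H2A genes (H2AC4, H2AC8, H2AC13, H2AC14, H2AC16, H2AC21, H2AC25), 7 of 17 H2B genes (H2BC7, H2BC8, H2BC13, H2BC14, H2BC15, H2BC18, H2BC26), 5 of 11 H3 genes (H3C4, H3C6, H3C10, H3C11, H3C13) and 2 of 12 H4 genes (H4C8, H4C16). Of these 23 genes 13 (56.5%) are among the 15 called in vehicle cells of batch 2 (86.7% of those). The count was 48 without mock replicate 2 and 9 without IR replicate 2.

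The libraries of batch 1 did not give the same picture. Set against the mock library of the same replicate and t label, the median change was -0.91 for replicate 1 t1, 0.02 for replicate 2 t1, -0.63 for replicate 1 t2 and -1.06 for replicate 2 t2. With the t1 libraries alone 16 of 56 genes fell and 2 rose, against 7.52% and 9.75% of all genes tested. With the t2 libraries alone 46 of 56 fell, against 21.7% of all genes. The split by H2B share crosses the t labels, so within a t label it cannot be told apart from IR. Subtype medians moved with the label: H2A was at -0.32 with t1 and -1.25 with t2, and H2B at -0.79 and -0.43. With mock replicate 1 taken from its t2 library alone, which leaves out the library with the high H2B level, 8 of 58 fell, against 0.328% of all genes. They were 1 H1 gene (H1-6), 4 H2A genes (H2AC4, H2AC13, H2AC14, H2AC16), 2 H2B genes (H2BC13, H2BC14), 1 H3 gene (H3C13) and 0 H4 genes, and 6 of the 8 are among those called in vehicle. Both irradiated samples were then below both mock samples for 48 of the 58, against 19.2% of all genes.

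The largest fall of batch 1 was that of H1-6, from 7.50 and 6.70 CPM in mock to 1.97 and 1.56 CPM after IR (log2 fold change -2.02, SE 0.254, edgeR adjusted p 0.000451). The 4 mock libraries had 6.55 to 7.99 CPM and the 4 irradiated libraries 1.32 to 2.09 CPM, so the gap held in both t1 and t2. H2AC4 went from 312 and 189 to 116 and 109.7 CPM (-1.15, SE 0.192, adjusted p 0.00428) and H2BC14 from 129 and 93.9 to 58.7 and 51.5 CPM (-1.01, SE 0.144, adjusted p 0.00118). H3C4 fell by 0.96 on the log2 scale, H3C10 went from 646 and 580.2 to 407 and 344 CPM, and H4C8 (-0.75) and H4C16 (-0.55) were the H4 genes called. H4C16 had 82.8 and 85.7 CPM in mock and 58.2 and 57.3 CPM after IR. H4C3, called in both arms of batch 2, had 205 and 179 and 164 and 159 CPM (-0.25, SE 0.126, adjusted p 0.508), and its sign turned with the t1 libraries alone (0.56). H2AC11 had 441 and 373 and 381 and 365 CPM (-0.12, adjusted p 0.842). With mock replicate 1 from its t2 library alone H1-6 (-2.05), H2AC4 (-0.86) and H2BC14 (-0.93) still fell (edgeR adjusted p 0.00477, 0.0246 and 0.0121). H3C4 (-0.73), H3C10 (-0.61), H4C8 (-0.71) and H4C16 (-0.53) then did not pass (edgeR adjusted p 0.133, 0.27, 0.134 and 0.0925). Nor did H1-5 (-0.82, edgeR adjusted p 0.0546). H4C3 was at -0.35 and H2AC11 at -0.18.

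**Figure D4:**
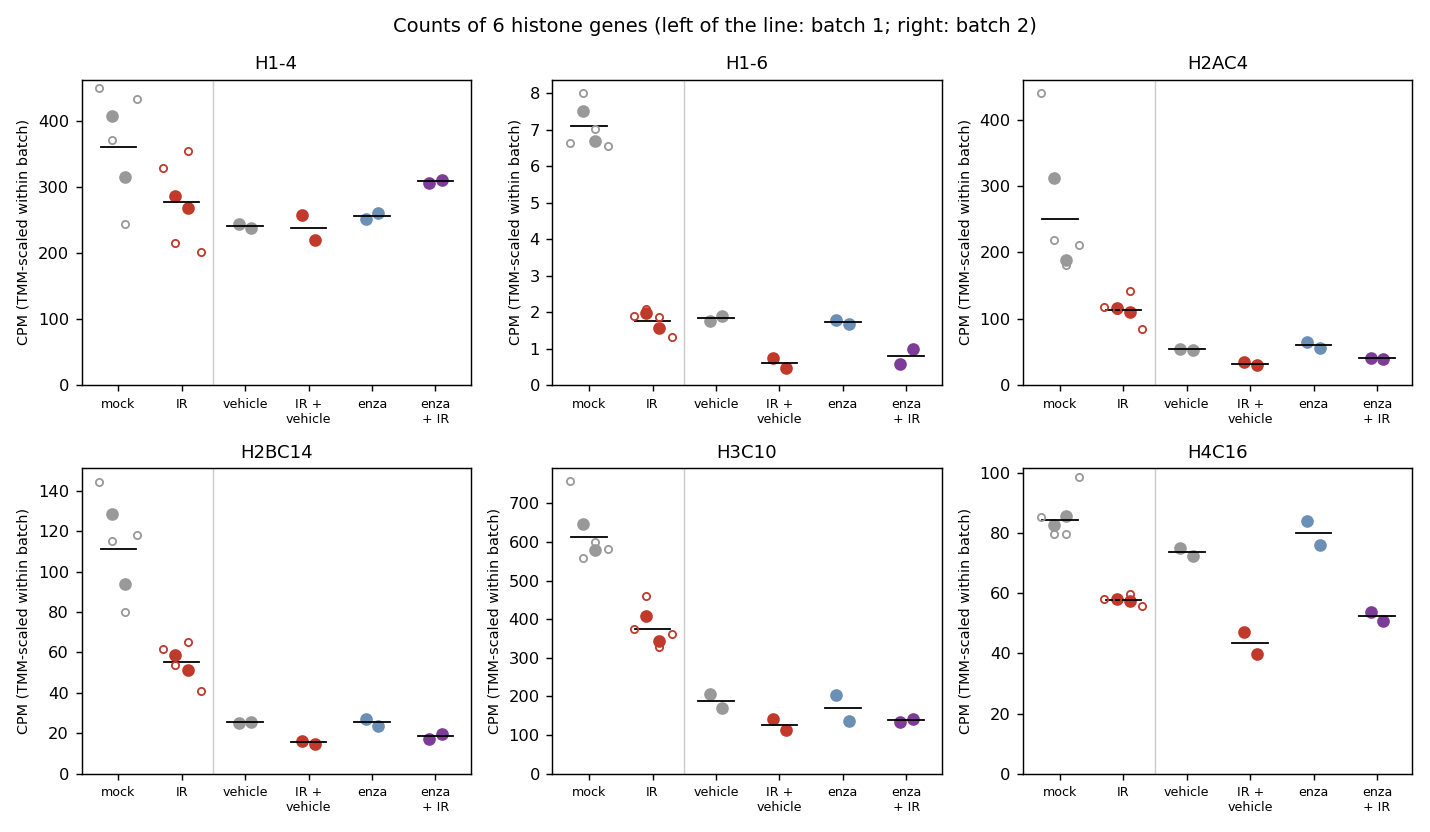
CPM of H1-4, H1-6, H2AC4, H2BC14, H3C10 and H4C16 in each sample (filled points; lines are means; open points are the t1 and t2 libraries of batch 1), on axes that start at 0. Samples with IR lie below their controls for the near-silent H1-6 and for H2AC4, H2BC14 and H4C16 in all 3 comparisons. H1-4 overlaps between vehicle and IR with vehicle and is higher in enzalutamide with IR than in enzalutamide.

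With both batches fitted together and batch as a covariate, 46 of 60 histone genes fell after IR and none rose, against 1.66% of all 29195 genes tested that fell and 2.39% that rose. The block gave 53, against 3.14% of all genes. The median log2 fold change was -0.54 against -0.024 over all genes tested, all 60 values were under 0, and leaving out each sample in turn gave counts of 38 to 54. With the t1 libraries alone for batch 1 the count was 19 (1.13% of all genes), with the t2 libraries alone 32 (1.04%), and with mock replicate 1 from its t2 library alone 34 (0.939%). H2A had 12 of 15 called, H2B 12 of 17, H3 11 of 12, H4 9 of 12 and H1 2 of 4. With mock replicate 1 from its t2 library alone these were 10, 9, 8, 5 and 2. Those that did not pass were H1-2, H1-4, H2AC1, H2AC11, H2AC17, H2BC3, H2BC5, H2BC10, H2BC12, H2BC17, H3C7, H4C5, H4C9 and H4C13. The value nearest to 0 in each subtype was that of H1-4 (-0.21), H2AC11 (-0.30), H2BC12 (-0.39), H3C15 (-0.31) and H4C13 (-0.32), and the lowest was that of H1-6 (-1.88), H2AC4 (-0.98), H2BC14 (-0.89), H3C3 (-1.40) and H4C8 (-0.73). Of these 10, H3C15 and the 5 lowest passed, and H3C15 did not without the t1 library of mock replicate 1 (-0.23, edgeR adjusted p 0.279). Before adjustment the difference in response between batches had an edgeR p under 0.05 for 3 of 60 genes, against 1651 of all 29195. It passed for 0 of 60 genes by edgeR, against 0.106% of all genes, and for 0 with the block, against 0.329%. With the t1 or the t2 libraries alone it passed for 2 and 20 genes, against 1.66% and 20.3% of all genes. In fits on t1 or t2 alone, IR in batch 1 cannot be told apart from the split by H2B share.

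Head-to-head neighbours were compared by their log2 fold changes. Among genes with a known strand, 11 pairs of an H2A and an H2B gene start 193 to 247 bases apart and point away from each other. Of these 11 pairs 10 were tested on both sides. For IR in both batches they differed within a pair by a median of 0.08 and by at most 0.17 (H2BC11 at -0.46 and H2AC11 at -0.30), while the 245 other combinations of a tested H2A and a tested H2B gene differed by a median of 0.20. The medians were 0.04 within pairs and 0.21 otherwise in vehicle, 0.09 and 0.16 in enzalutamide, and 0.11 and 0.23 in batch 1, where H2BC11 and H2AC11 differed by 0.33. Combinations share genes, so these are descriptions with no test. H2AC12 had no strand here and was not paired. It lies beside the start of H2BC12, and these 2 count among the 245 others. In vehicle cells H2AC12 went from 144 and 131 to 102 and 94.7 CPM after IR, and H2BC12 from 112 and 112 to 112 and 85.9 CPM. In enzalutamide cells H2AC12 went from 161 and 113 to 98.1 and 100 CPM, and H2BC12 from 125 and 114 to 119 and 114 CPM. In the pair whose sequence is shown above, H2AC14 had -0.79 (SE 0.0793) and H2BC14 -0.89 (SE 0.0994). The pair H2AC25 and H2BC26 on chromosome 1 had -0.64 and -0.72, and H2AC17 and H2BC17 had -0.32 and -0.45. Reads of the 2 genes of a pair come from opposite strands, and whether strand was used in counting is not given in the sources used here. In all, 10 members overlap another RefSeq gene, and without them 14 of 51 genes fell in vehicle cells and 41 of 51 in both batches, against 0.353% and 1.66% of all genes tested.

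Enzalutamide itself changed no histone gene past the threshold. Averaged over IR, 0 of 60 passed by edgeR, against 0.0628% of all genes tested, which all fell. Before adjustment 18 of 60 were below 0.05 by edgeR, against 1780 of all 28651 genes. By DESeq2 0 of 60 passed, against 54 of all genes. With the block 5 rose, against 0.283% of all genes. The median log2 fold change was 0.13 against 0.00074 over all genes tested, with 8 of 60 below 0. The summed level with the drug was 105% of vehicle without IR and 116% with IR, and for H1 it was 110% and 128%. Replicates differed in this: without IR the median change was 0.12 in replicate 3 and -0.03 in replicate 4, and with IR it was 0.06 and 0.35. H1-2 had 218 and 208 CPM in vehicle and 251 and 248 CPM with the drug, and 201 and 149 and 228 and 228 CPM in the irradiated arms (0.30, SE 0.0788, edgeR adjusted p 0.439, and 0.00805 with the block).

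The untreated levels of the 2 batches are given as a description, since mock and vehicle cannot be told apart from the batch. Relative to unscaled library totals, the 51 active genes were at a median of 2.91 times the vehicle level in mock cells. H2BC17 was highest at 5.77, followed by H2BC12 at 5.30 and H2AC20 at 4.99. Subtype medians were 2.57 for H1, 2.94 for H2A, 2.95 for H2B, 2.53 for H3 and 3.19 for H4. There were 3 genes under 1.5: H1-4 at 1.48, H4C16 at 1.13 and H3C2 at 0.73. Without the t1 library of mock replicate 1 the median was 2.79, H2BC17 was at 4.63, H2BC12 at 4.09 and H2AC20 at 4.25, and 4 genes were under 1.5 (H1-4, H2BC6, H3C2 and H4C16). The proportions also differed: H2B made up 32.2% of histone counts in mock cells and 25.6% to 25.8% in vehicle, while H3 made up 15.2% to 17.0% and 20.0% to 21.4%. By single library the share of H2B in mock cells ran from 26.6% to 37.2%, and that of H3 from 14.4% to 17.0%.

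**Figure D5:**
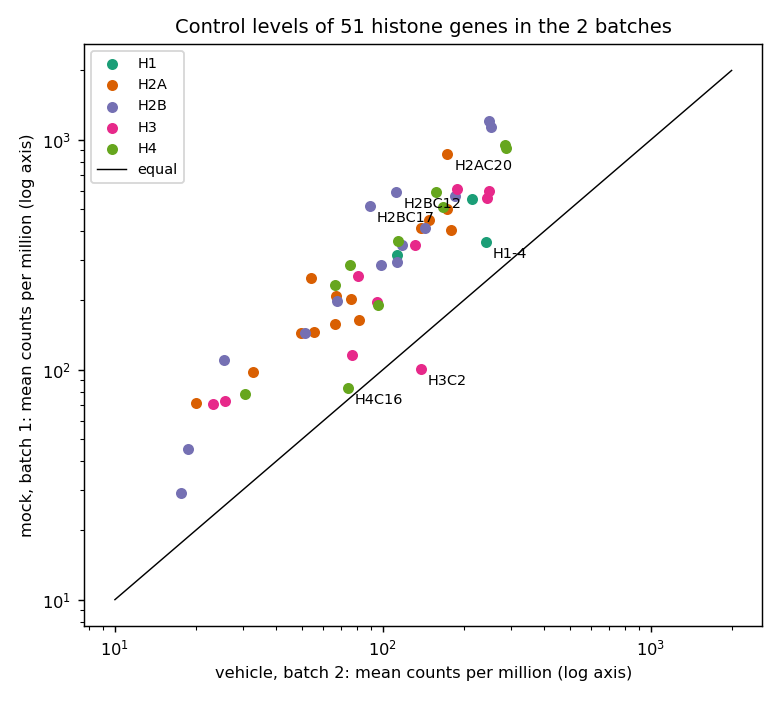
Mean level of each of the 51 active histone genes in vehicle cells of batch 2 (horizontal) and mock cells of batch 1 (vertical), in unscaled CPM on log axes, coloured by subtype; the line marks equal levels. All points but H3C2 lie above the line, with H4C16 and H1-4 nearest to it.

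Of the genes that act on histone transcription and supply, none was called lower after IR. Among 31 genes for histone transcription and mRNA processing, 1 rose and 0 fell in vehicle cells, where 0.743% of all genes tested rose and 0.353% fell. It was E2F1, an activator of S phase genes, at 0.60 (SE 0.0981, edgeR adjusted p 0.00673). In both batches, where 2.39% of all genes rose and 1.66% fell, 2 of 31 rose, E2F1 and SLBP, which binds the stem-loop of histone mRNA (0.26, SE 0.0666, adjusted p 0.0253). NPAT had 80.4 and 77.9 CPM in vehicle and 93.2 and 79.8 CPM after IR, and was not called. Of 16 histone chaperones none was called in vehicle cells and 1, TONSL, rose in both batches (0.44). Of 15 tested genes of S phase control 2 rose and 2 fell in vehicle cells. CDKN1A rose from 36.6 and 44.7 to 309.6 and 353 CPM and CDT1, a replication licensing factor, rose by 0.56, while DBF4, the partner of the CDC7 kinase, and CDKN1B fell by 0.44 and 0.41 on the log2 scale. In both batches 2 of these 15 rose (CDKN1A and CDT1) and 3 fell (DBF4, CDKN1B and CCNA2, which encodes cyclin A2, at -0.41). In enzalutamide cells CDKN1A alone of these lists was called (2.88), and in batch 1 CDKN1A rose (3.65) and DBF4 and CDKN1B fell. The medians of the 3 lists after IR in vehicle were 0.08, 0.20 and 0.21, against -0.52 for the histone genes.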

How the data were processed

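PRO-seq was carried out on 16 libraries of LNCaP cells in 2 batches. The deposited tables hold raw read counts per Ensembl gene, which are whole numbers with totals that differ between libraries. Per the submitters' processing notes, the authors used cutadapt 1.8.1, Bowtie2 2.4.4 and SAMtools 1.9 and the hg38 build. The counting tool, annotation release, use of strand, and handling of multi-mapping and duplicate reads are not given in the sources used here. Of 60605 identifiers, 60463 matched the table of gene names. Counts of the t1 and t2 libraries of batch 1 were summed per replicate.

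Tests were run on the whole tables with edgeR 4.0.16 in R 4.3.3 (filterByExpr, TMM scaling, glmQLFit and glmQLFTest, two-sided, Benjamini-Hochberg over all genes tested, threshold 0.05). Batch 2 was fitted as IR, enzalutamide and their interaction over 8 samples, the average drug effect without the interaction, and both batches without the enzalutamide samples. CPM are TMM-scaled within a batch, and batches were compared on unscaled totals. SE are the log2 fold change divided by the square root of F, and intervals are 95% from the t distribution. The steps were tested on simulated counts.

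The same replicate numbers occur in all groups of a batch. Replicate differences of 2 groups correlated across genes at 0.239 to 0.444 in 6 pairs of batch 2 groups and at 0.328 in batch 1, so fits with a replicate block are printed beside the counts. The genes named are the 2 members of each subtype with the highest mean, all members called (at most the 5 largest rises and falls of a comparison with over 15), and the lowest and highest log2 fold change of each subtype over both batches. Further members were named after their values were seen. The members, gene lists and tests were chosen with earlier results of these data known. DESeq2 1.42.0 and other settings served as alternatives. The use of mock replicate 1 from its t2 library alone was chosen after seeing the data.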

Additional observations from a re-analysis of the deposited data

Results flagged for a closer look

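In the mock group of batch 1, the summed CPM of the H2B genes was 9351 in the t1 library of replicate 1 and 4891, 5017 and 5270 in the other 3 libraries. The gap to the nearest library was 0.915 of the whole range, above the critical value of 0.829 for 4 values. The sums of the other subtypes in that library did not pass the same limit. Chance marks about 1 in 20 such groups, and 12 sums were looked at.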

How the results depend on the processing

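No histone gene was called higher after IR under any setting, except for 2 in batch 1 with the t1 libraries alone, but the number called lower moved. With no filter on low counts 36 of 67 were called for IR in vehicle, 22 for IR in enzalutamide and 43 for IR in batch 1, against 0.513%, 0.458% and 0.812% of all genes that fell. Without that filter 2 were called higher for enzalutamide averaged over IR, against 50 of all 54974 genes. For the difference between batches 1 was then called, against 119 of all 54709 genes. With the replicate block, which uses the pairing, the counts were 45, 30 and 50 for IR in vehicle, in enzalutamide and in batch 1 and 5 for enzalutamide averaged over IR, and the block moved no other count by over 1.5 times. With only the groups compared in the fit 30 of 60 and 3 of 59 were called for IR in vehicle and in enzalutamide (0.63% and 0.269% of all genes fell), and DESeq2 called 9 of 60 in enzalutamide (0.366%). In batch 1 the t2 libraries alone gave 46 and mock replicate 1 from its t2 library alone gave 8. Over both batches the t1 libraries alone gave 19. The difference between batches was called for 2 genes with the t1 libraries alone and 20 with the t2 libraries alone. Within a t label, IR in batch 1 cannot be told apart from the split of those libraries by H2B share. The median change of H3 after IR in vehicle was -0.52 with library totals as the scale. RLE factors and a mean of at least 50 counts moved no count by over 1.5 times. Leaving out 1 sample at a time gave 3 to 31 calls for IR in vehicle (0.105% to 0.642% of all genes fell), 1 to 18 in enzalutamide (0.0947% to 0.662%), 9 to 48 in batch 1 (0.628% to 2.87%), 38 to 54 over both batches (0.903% to 1.63%), 0 to 1 for the difference between batches, and 0 in each refit for enzalutamide averaged over IR and for the interaction. Where 1 sample of a group is left, it is assumed to vary like the other groups. The causes of these moves were not tested.

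Of the genes named, 5 turned sign when 1 sample was left out. Their log2 fold changes then ran from -0.13 to 0.092 for H1-4 after IR in vehicle, and in enzalutamide from -0.39 to 0.0011 for H2BC21, from -0.085 to 0.16 for H3C4 and from -0.095 to 0.038 for H2BC12. In batch 1 they ran from -1.0 to 0.024 for H2BC12 and from -0.15 to 0.083 for H4C13. With the t1 libraries alone in batch 1 the values were 0.00066 for H1-4, 0.39 for H2AC11 and 0.56 for H4C3 (edgeR adjusted p 0.0434). Depth limits the near-silent genes most, as the SE of 0.527 for H4C13 and 0.106 for H2AC4 after IR in enzalutamide show.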
